A study of Homo sapiens with 8 samples.

Results

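The genes described here encode variant histones and the proteins that make the 3′ ends of histone mRNAs, and their expression was compared between control cells and cells with inhibited O-GlcNAc transferase. The 9 members described were genes listed by symbol, of 16796 genes in the count files. They were the variant histone genes H2AFZ, H2AFX, H2AFV, H3F3A and H3F3B and the processing genes SLBP, NPAT, LSM10 and LSM11. The rule used no measured value, and all 9 were tested. The cells were LX-2, an established human line of activated hepatic stellate cells, and all of them were kept in medium with 5% serum. Control cells received the DMSO vehicle, and OGTi cells received the OGT inhibitor OSMI-1 at 50 µM, each for 24 h. OGT adds O-GlcNAc, a single sugar, to proteins of the nucleus and cytoplasm. Each group had 4 libraries of polyadenylated RNA, and a control and an OGTi library with the same replicate number formed a pair. OSMI-1 was the only inhibitor and LX-2 the only cell line in these libraries, so an effect of the compound other than on OGT cannot be told apart from inhibition of the enzyme.

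Most histone proteins are made in S phase from clustered, replication-dependent genes whose mRNAs end in a conserved stem-loop in place of a poly(A) tail. NPAT activates these genes at the histone locus body, SLBP binds the stem-loop, and LSM10 and LSM11 are subunits of the U7 snRNP that directs cleavage behind it. Variant histones are made throughout the cell cycle, mostly from single genes with polyadenylated mRNAs, and replace the standard histones in chromatin. H2A.Z and H3.3 are found at promoters and enhancers, and phosphorylated H2AX marks DNA breaks. Libraries made from polyadenylated RNA do not capture histone mRNAs that end at the stem-loop.

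H2AFX is the member whose mRNA can end in either way, and its stem-loop is shown for this reason. The sequence is given 5′ to 3′ on the sense strand with the stem-loop in capitals and 5 flanking bases on each side in lower case.
H2AFX stem-loop: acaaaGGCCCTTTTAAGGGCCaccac
The stem-loop lies in the 3′ UTR of the single exon of H2AFX, at chr11:119094898-119094913 of hg38 on the minus strand, 50 bases behind the stop codon. A search for the stem-loop consensus (GG, 3 bases of any kind, TTNTNA, 3 bases of any kind, CC) on the sense strand of the 100 bases behind the stop codon found it in 48 of 19026 protein-coding genes (0.252%). It was present in 27 of 27 replication-dependent histone genes that could be searched and in 1 of the 9 members, H2AFX. Genes with too little annotated sequence behind the stop codon were left out, and the expression data hold 66 replication-dependent histone genes. A match is a description of these letters and shows no processing.

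The promoters of the members were searched for 3 motifs on both strands in the 250 bases before the RefSeq transcription start. All 9 members had a window. The CCAAT box, searched as CCAAT and its reverse complement, occurred 4 times each in H2AFX, H2AFV and H3F3B, 3 times in H2AFZ, 2 times in NPAT and 1 time each in LSM10 and in the window of H3F3A nearest to the annotated start. Neither SLBP nor LSM11 had a match. Among 35116 promoter windows of all genes, 32% held at least 1 CCAAT box, 9.53% at least 2 and 2.93% at least 3. A cell cycle homology region, searched as TTTGAA and its reverse complement and as the palindrome TTCGAA, was found in H2AFX and H2AFV and in 14.3% of all windows. The E2F motif, searched as TTTCCCGC, as TTTGGCGC and as the reverse complement of each, was found in no member and in 1.93% of all windows. The motifs were chosen with the expression values known, and no test was made of them.

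The windows of the 3 members with 4 CCAAT boxes are shown because this was the one motif that most members held. They come from RefSeq on GRCh38.p14 and run 5′ to 3′ on the strand of the gene. Each ends 1 base before a RefSeq transcription start, with each CCAAT box, on either strand, in capitals. For H3F3B this start lies inside the annotated span of the gene, chr17:75776434-75785893.
H2AFX promoter, chr11:119095466-119095715, minus strand: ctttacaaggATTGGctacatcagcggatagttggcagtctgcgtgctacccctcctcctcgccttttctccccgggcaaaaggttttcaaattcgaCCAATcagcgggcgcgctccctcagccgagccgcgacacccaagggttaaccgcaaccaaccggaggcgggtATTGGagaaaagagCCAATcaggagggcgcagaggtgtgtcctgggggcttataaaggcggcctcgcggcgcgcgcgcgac
H2AFV promoter, chr7:44848088-44848337, minus strand: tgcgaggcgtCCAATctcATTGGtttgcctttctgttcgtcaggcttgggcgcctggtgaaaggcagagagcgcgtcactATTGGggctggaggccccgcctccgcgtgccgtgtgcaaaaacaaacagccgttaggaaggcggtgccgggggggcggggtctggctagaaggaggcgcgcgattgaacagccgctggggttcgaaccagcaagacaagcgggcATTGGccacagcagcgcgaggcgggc
H3F3B promoter, chr17:75779780-75780029, minus strand: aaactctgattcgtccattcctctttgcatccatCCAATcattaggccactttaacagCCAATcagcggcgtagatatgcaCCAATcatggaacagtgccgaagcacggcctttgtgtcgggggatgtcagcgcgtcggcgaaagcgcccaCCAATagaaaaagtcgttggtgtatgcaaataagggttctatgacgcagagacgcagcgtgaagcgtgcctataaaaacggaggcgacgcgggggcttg
H2AFX was higher, H2AFV was lower and H3F3B was not called in OGTi cells, and any relation to the motifs was not tested.

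The 8 libraries held between 24166756 and 28201215 expected counts each. Of 10 stellate cell markers, 8 reached a mean of 10 normalized counts, among them COL1A1 and VIM, and DES and LRAT did not. The summed stellate markers ranged from 205102 to 243486 normalized counts in control and from 148136 to 173383 in OGTi libraries. The summed endothelial markers were 47.7 to 91.1 in control and 17 to 33.8 in OGTi libraries, with PECAM1 at or below 9.36 throughout and CDH5 at 23.4 to 45.1 in control and 1 to 5.77 in OGTi libraries. The hepatocyte markers summed to 19.5 to 74 in control and 26 to 74 in OGTi libraries, and the cholangiocyte markers to 681 to 1151 and 954 to 1273. Only 2 of 6 hepatocyte markers were in the count files, without ALB, and SERPINA1 gave nearly all of their sum. Of 5 cholangiocyte markers 3 were in the files, without EPCAM, and SOX9 gave most of their sum (580 to 1019 in control and 906 to 1196 in OGTi libraries). The leukocyte gene PTPRC stayed at or below 11.5 in every library. The summed macrophage and leukocyte markers were 2482 to 4089 in control and 5610 to 9391 in OGTi libraries, nearly all of it CD68, which encodes a lysosomal membrane protein. The part of these shifts in the results for the members was not tested.

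H2AFX rose, H2AFV and LSM11 fell, and the other 6 members were not called. Calls were made with the Wald test of DESeq2 with replicate number as a block, at a q (the p-value adjusted by Benjamini-Hochberg over all genes) of 0.05 or lower. With 3 of 9 members called (33.3%), the share stood beside 46.6% of all 14028 genes with a q. In detail, 1 member rose against a background of 22.7%, and 2 fell against 24.0%. Every member had a mean above 100 normalized counts, and of all genes at or above that mean 53.1% were called. Under the alternatives, 3 members were called in each except without replicate 1, where 4 were, and the background was then 43.2% with no replicate block, 47.5% and 40.6% with edgeR with and without the block, 45.6% with TMM size factors, 45.9% with no count filter, 53.0% with a CPM filter, and 40.5%, 37.3%, 38.2% and 37.9% without replicates 1 to 4 in turn. The values of the 4 control and 4 OGTi libraries did not overlap for 2 members, beside 40.0% of all genes. The median log2 fold change of the members was -0.06, beside 0.00 over all genes tested, and their median absolute log2 fold change was 0.16, beside 0.31 over all genes with a q. Without replicate 1 the share of members called (44.4%) was above its background of 40.5%. The share was near the background and was not tested against it, so the results that follow concern single genes.

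**Figure D1:**
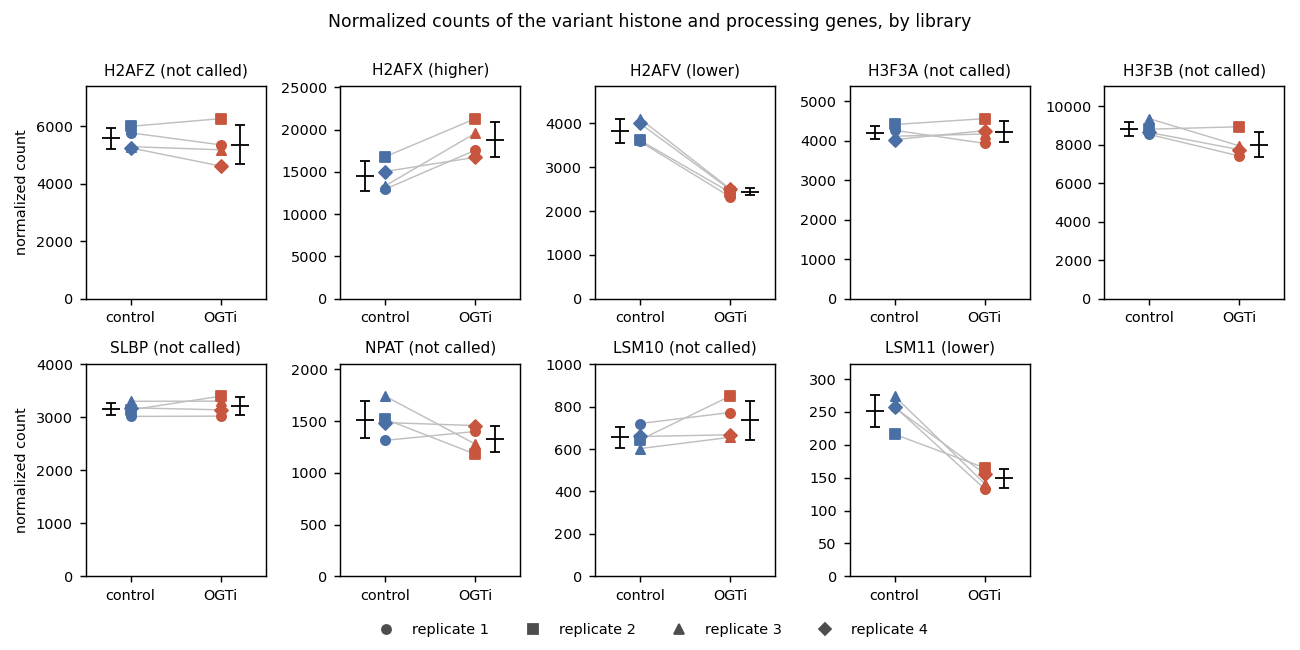
Normalized counts (vertical axis, starting at 0) of the 9 members in the 4 control and 4 OGTi libraries, 1 panel per gene, with lines that join libraries of the same replicate number and black marks with bars beside the points for the group mean and SD. The control and OGTi points stand apart for H2AFV and LSM11 and overlap for the other 7 genes, with H2AFX overlapping by a single library of each group.

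Among the genes for H2A variants, H2AFV was lower in OGTi cells. H2AFV (newer symbol H2AZ2; chr7:44826791-44848087, minus strand, 5 exons) encodes H2A.Z.2, one of the forms of H2A.Z. Replicates 1 to 4, in this order here and below, had 3586, 3613, 4107 and 3998 normalized counts in control and 2326, 2427, 2506 and 2491 in OGTi libraries. Every OGTi library lay below every control library. The log2 fold change was -0.65 ± 0.07 (SE; 95% interval -0.79 to -0.51), lower in 4 of 4 pairs, with a DESeq2 q of 4.10e-18. RSEM gave H2AFV a fractional count in 8 of 8 libraries, so some of its reads were shared with other alignments, which the files do not name.

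H2AFZ (newer symbol H2AZ1; chr4:99948086-99950355, minus strand, 5 exons) encodes H2A.Z.1, the other form. Its normalized counts were 5765, 5990, 5286 and 5241 in control and 5348, 6258, 5175 and 4612 in OGTi libraries. OGTi replicates 2 and 4 were the highest and the lowest of the 8 values, and the groups overlapped. H2AFZ was not called, with a log2 fold change of -0.06 ± 0.07 (95% interval -0.20 to 0.07, DESeq2 q of 0.484).

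The ratio of the genes for the forms of H2A.Z therefore changed, with H2AFV lower and H2AFZ not called. It is given as the log2 ratio of H2AFZ to H2AFV, in normalized counts per kilobase of transcript. Its difference mostly restates the fall of H2AFV and is no separate evidence of that fall. In control libraries the log2 ratio was 2.49, 2.53, 2.17 and 2.20, and in OGTi libraries it was 3.01, 3.17, 2.85 and 2.69. All OGTi ratios lay above all control ratios. The mean rose from 2.35 ± 0.19 to 2.93 ± 0.21 (SD, n = 4 each), a difference of 0.58. The exact permutation test, two-sided, gave p = 0.0286, which is the lowest p possible with 4 libraries a group, and 0.0286 after adjustment over the 2 ratios tested. Within pairs the ratio was higher in 4 of 4, and an exact sign-flip test of 4 pairs cannot go below 0.05. H2AFZ made up 83.5% ± 1.82 of the summed level of both genes per kilobase in control and 88.3% ± 1.46 in OGTi libraries. The sum itself was 7697 ± 343 and 6981 ± 779 normalized counts per kilobase, and its ranges overlapped. The sum gives H2AFZ more weight because its annotated transcript is shorter (866 bases, beside 3026 for H2AFV). The overlap therefore holds on this scale only. The coding sequences of the 2 genes are identical at 309 of 384 bases (80.5%), with a longest shared run of 23 bases in their transcripts, and H2AFZ had whole counts in all libraries.

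H2AFX (newer symbol H2AX; chr11:119093874-119095465, minus strand, 1 exon) had the highest level of the members per kilobase in both groups. It had 12958, 16782, 13344 and 15037 normalized counts in control and 17556, 21285, 19566 and 16718 in OGTi libraries. The highest control value, in replicate 2, lay just above the lowest OGTi value, in replicate 4. Within pairs H2AFX was higher in 4 of 4, and it rose with a log2 fold change of 0.37 ± 0.08 (95% interval 0.22 to 0.52, DESeq2 q of 4.43e-06). The polyadenylated form of the H2AFX mRNA contains the stem-loop shown above, and the libraries do not report the form that ends at it.

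Both H3.3 genes encode the same protein, and neither was called. H3F3A (newer symbol H3-3A; chr1:226061851-226072019, plus strand, 4 exons) had 4259, 4406, 4109 and 4024 normalized counts in control and 3929, 4554, 4165 and 4251 in OGTi libraries. The OGTi values spanned the control values, and the log2 fold change was 0.01 ± 0.07 (95% interval -0.13 to 0.15, DESeq2 q of 0.947). H3F3B (newer symbol H3-3B; chr17:75776434-75785893, minus strand, 4 exons) had 8532, 8803, 9351 and 8635 in control and 7411, 8930, 7937 and 7740 in OGTi libraries. Of the OGTi libraries of H3F3B, replicates 1, 3 and 4 lay below all controls, and replicate 2 lay within them. Its log2 fold change was -0.14 ± 0.07 (95% interval -0.28 to -0.01), lower in 3 of 4 pairs, and it missed the threshold with a DESeq2 q of 0.0789. H3F3B had fractional counts in 7 of 8 libraries.

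The log2 ratio of H3F3B to H3F3A per kilobase was -0.34, -0.34, -0.15 and -0.24 in control and -0.42, -0.37, -0.41 and -0.47 in OGTi libraries. Again the groups did not overlap, although the gap between -0.34 and -0.37 was small. The mean moved from -0.27 ± 0.09 to -0.42 ± 0.04 (SD, n = 4 each), a difference of -0.15 with an exact permutation p, two-sided, of 0.0286, also 0.0286 after adjustment over the 2 ratios. Within pairs the ratio was lower in 4 of 4. Any values without overlap between 2 groups of 4 get this p, and 40.0% of all genes had no overlap. The share for ratios of other gene pairs was not examined. H3F3B gave 45.4% ± 1.54 of the summed H3.3 level per kilobase in control and 42.8% ± 0.749 in OGTi libraries. The H3.3 sum was 7189 ± 186 and 6908 ± 476 normalized counts per kilobase, with overlapping ranges. Their coding sequences share 320 of 408 bases (78.4%), with a longest shared run of 14 bases in the transcripts. The ratio of each pair of genes was computed within a library and does not depend on its size factor.

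**Figure D2:**
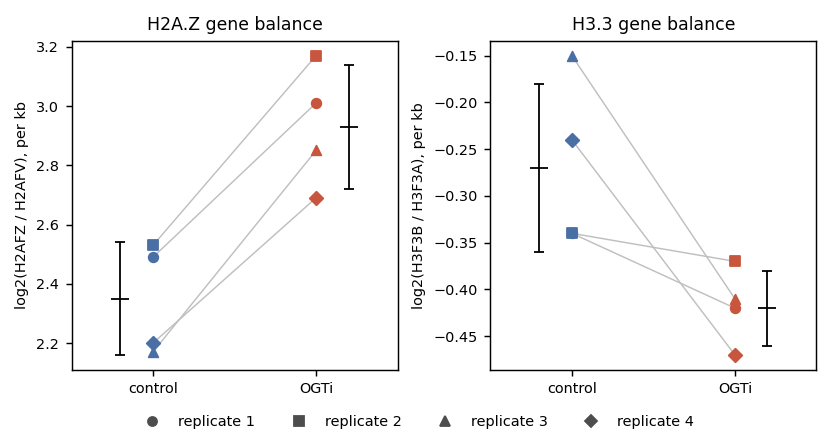
Log2 ratio of H2AFZ to H2AFV and of H3F3B to H3F3A (vertical axes, normalized counts per kilobase) in each library by group, with lines that join libraries of the same replicate number and black marks for the mean and SD. The H2A.Z ratio rose in 4 of 4 pairs, by 0.58 on average, and the H3.3 ratio fell in 4 of 4 pairs, by 0.15 on average.

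Of the processing factors, LSM11 fell, and SLBP, NPAT and LSM10 were not called. LSM11 (chr5:157743712-157760709, plus strand, 4 exons) encodes the U7 snRNP subunit that recruits the cleavage machinery. It had 258, 216, 274 and 257 normalized counts in control and 133, 165, 141 and 156 in OGTi libraries. The groups stood apart, with all OGTi libraries below the lowest control library. The log2 fold change was -0.75 ± 0.18 (95% interval -1.10 to -0.40), lower in 4 of 4 pairs, with a DESeq2 q of 0.000109. As the member with the fewest counts it had the widest interval, and its counts were fractional in 8 of 8 libraries.

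LSM10 (chr1:36391238-36397908, minus strand, 2 exons) encodes the partner of LSM11 in the Sm-like ring of the U7 snRNP. Its values were 720, 643, 602 and 659 normalized counts in control and 772, 849, 655 and 667 in OGTi libraries. It was higher in 4 of 4 pairs, but the groups overlapped, and the largest difference was in pair 2 and the smallest in pair 4. The log2 fold change of 0.16 ± 0.11 (95% interval -0.05 to 0.38) was not called (DESeq2 q of 0.234).

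SLBP (chr4:1692731-1712344, minus strand, 8 exons), the stem-loop binding protein, had 3013, 3136, 3298 and 3175 normalized counts in control and 3018, 3394, 3301 and 3137 in OGTi libraries. The groups covered nearly the same range. Its log2 fold change was 0.03 ± 0.07 (95% interval -0.11 to 0.17, DESeq2 q of 0.807).

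NPAT (chr11:108157215-108222638, minus strand, 18 exons) is the activator of replication-dependent histone genes and a substrate of cyclin E and CDK2. It had 1314, 1519, 1741 and 1486 normalized counts in control and 1400, 1180, 1278 and 1457 in OGTi libraries. Replicate 1 went against the others, with its control library the lowest of that group and its OGTi library higher than its partner. With all pairs the log2 fold change was -0.19 ± 0.10 (95% interval -0.39 to 0.02, DESeq2 q of 0.134), and without replicate 1 it was -0.28 with a DESeq2 q of 0.0327, past the threshold. ATM (chr11:108223044-108369102, plus strand), the DNA damage kinase gene that starts beside NPAT on the opposite strand, was called higher with a log2 change of 0.28 ± 0.10 (DESeq2 q of 0.0121), but the call was lost with no replicate block (q of 0.0641) and without replicate 3 (q of 0.0718) or 4 (q of 0.198). The difference between these neighbours was not tested.

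**Figure D3:**
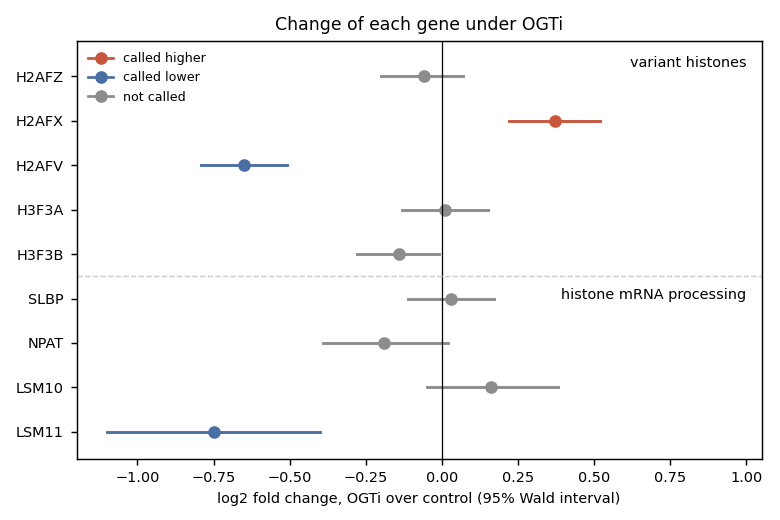
Log2 fold change of OGTi over control for each member (horizontal axis; points, with 95% intervals from the DESeq2 standard error as bars), variant histone genes above and processing genes below. The interval of H2AFX lies above 0 and those of H2AFV and LSM11 lie below it, and H3F3B, with an interval of -0.28 to -0.01, was not called at a q of 0.0789.

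Levels of the members were set side by side per kilobase of the annotated main transcript, as normalized counts per kilobase. H2AFX was the highest of the members in control libraries with 9127 ± 1100 (SD, n = 4 here and below). H2AFZ followed with 6433 ± 423, H3F3A with 3925 ± 157 and H3F3B with 3264 ± 135. The remaining order was SLBP with 1743 ± 64.9, H2AFV with 1264 ± 87.8, LSM10 with 763 ± 56.9, NPAT with 248 and LSM11 with 38.2. No neighbours in this order overlapped between the control libraries. In OGTi libraries the order was the same except that LSM10, at 855 ± 107, stood before H2AFV at 806 ± 27.1, and these 2 overlapped. The transcript used by these cells may be shorter or longer than the annotated one, which would move a level on this scale.

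**Figure D4:**
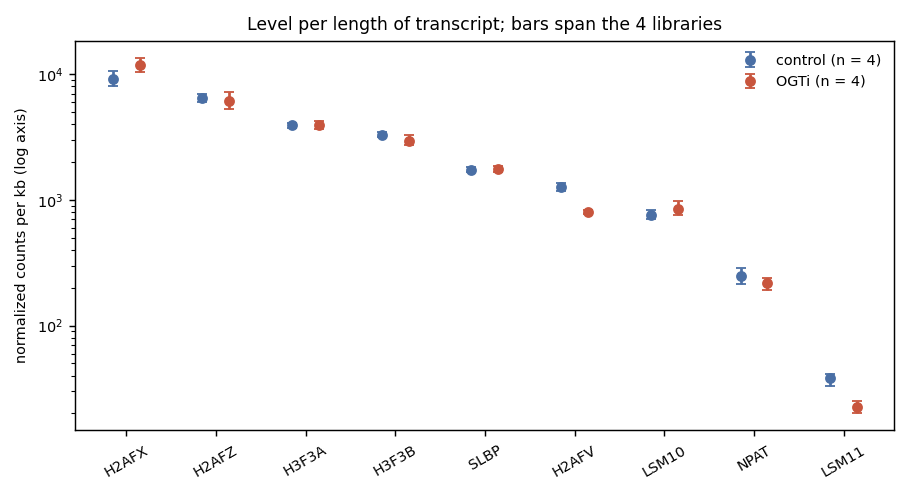
Level of each member in normalized counts per kilobase of transcript (log axis), with a point for the mean of each group and a bar from its lowest to its highest library (n = 4), ordered by the control mean. The members span from 38.2 for LSM11 to 9127 for H2AFX in control libraries, and the bars of LSM10 and H2AFV overlap in OGTi libraries.

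Other genes for variant histones were read from a list of 13, of which 8 had a q. Of these, 1 was higher, 2 were lower and 5 were not called (37.5% called, beside 46.6% of all genes). The median log2 fold change was -0.31, or -0.09 with no count filter. CENPA, the H3 variant of centromeres, averaged 879 ± 99.5 normalized counts in control and 401 ± 61.9 in OGTi libraries and fell by 1.14 ± 0.12 on the log2 scale (DESeq2 q of 2.14e-20). CENPA is also in the list of G2/M genes given below. H2AFY2, a macroH2A gene, fell with a log2 change of -0.54 ± 0.14 (DESeq2 q of 0.00064). H2AFJ, which encodes H2A.J, was called higher with 0.45 ± 0.16 (DESeq2 q of 0.0156), but not when replicate 2, 3 or 4 was left out.

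The other factors of histone mRNA 3′ end formation numbered 24, and all had a q. There were 4 higher, 9 lower and 11 not called (54.2% called, beside 46.6% of all genes), with a median log2 fold change of -0.08. CPSF2, which encodes the CPSF100 subunit of the cleavage complex, fell from 1278 ± 83.1 to 761 ± 59.3 normalized counts (-0.75 ± 0.10 in log2, DESeq2 q of 1.21e-12). SNRPG (-0.75 ± 0.11), SNRPF (-0.48 ± 0.10) and SNRPB (-0.43 ± 0.07) also fell, and they encode Sm proteins that are shared by the U7 snRNP and the spliceosome. Of the other Sm genes listed, SNRPE fell (-0.47 ± 0.14) and SNRPD3 was not called (-0.13 ± 0.08, DESeq2 q of 0.16). CPSF1 (0.27 ± 0.08, DESeq2 q of 0.00123) and CPSF3 (0.24 ± 0.10, DESeq2 q of 0.0421) were among the 4 higher. ZNF473, a partner of LSM11 in the U7 snRNP, was not called at 0.17 ± 0.11 (DESeq2 q of 0.193).

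At the histone locus, 10 genes were read beside NPAT, namely transcription factors, regulators and ATM, which was listed as the neighbour of NPAT. Of these, 1 was higher (ATM, given above), 3 were lower and 6 were not called (40% called, beside 46.6% of all genes). The median log2 fold change was -0.03. CDK2 (-0.24 ± 0.08, q of 0.00748) and CCNE1 (-0.50 ± 0.20, q of 0.0264) encode the kinase and the cyclin that phosphorylate NPAT, and both were called lower by DESeq2. YY1 was lower with -0.22 ± 0.09 (DESeq2 q of 0.0274). These calls were close to the threshold, and 6 of 10 alternatives left 1 or 2 of the 4. The call of CDK2 was lost without replicate 1 (q of 0.0808) and with no replicate block (q of 0.104 by DESeq2 and 0.112 by edgeR), that of CCNE1 without replicate 1, 2 or 4 (q of 0.0977 to 0.185) and that of YY1 without replicate 2, 3 or 4 (q of 0.157 to 0.164) or by edgeR with no replicate block (q of 0.0538). CASP8AP2 (FLASH), which works with LSM11 in histone mRNA cleavage and sits with NPAT in the histone locus body, had a log2 change of -0.07 ± 0.12 (DESeq2 q of 0.639) and was not called.

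Chaperones and exchange factors carry the variants into chromatin. For H2A.Z and H2AX, 16 such genes had a q, with 1 higher, 5 lower and 10 not called (37.5% called, beside 46.6% of all genes). Their median log2 fold change was -0.11. ANP32E, which removes H2A.Z from nucleosomes, fell from 1590 ± 180 to 840 ± 120 normalized counts (-0.92 ± 0.11 in log2, DESeq2 q of 2.94e-16). ANP32E is also in the list of G2/M genes given below. SSRP1, a subunit of the histone chaperone FACT, fell with -0.71 ± 0.07 and NAP1L1 with -0.37 ± 0.07, whereas SRCAP, the ATPase of a complex that deposits H2A.Z, rose with 0.26 ± 0.07 (DESeq2 q of 0.000567).

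For H3.3, H3.1 and CENP-A, 15 of the 16 chaperone genes had a q. Of these, 3 were higher, 4 were lower and 8 were not called (46.7% called, beside 46.6% of all genes). The median log2 fold change was 0.03, or -0.02 without replicate 3. DEK, which encodes a chromatin protein that binds H3.3, fell from 19431 ± 2409 to 7666 ± 261 normalized counts (-1.33 ± 0.08 in log2, DESeq2 q of 1.01e-67). DAXX, an H3.3 chaperone of heterochromatin, fell with -0.27 ± 0.07 and HJURP, the chaperone of CENP-A, with -0.31 ± 0.08. HJURP is also in the list of G2/M genes given below. CABIN1, a subunit of the HIRA complex, rose with 0.29 ± 0.07, as did ASF1B, which hands H3 and H4 to other chaperones, with 0.37 ± 0.08. HIRA itself, which deposits H3.3 at active genes, was not called at 0.12 ± 0.08 (DESeq2 q of 0.252).

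Many replication-dependent histone genes rose in these polyadenylated libraries. They were taken by the start of their symbol. Of 66 in the files, 58 were tested and 49 had a q. Of the 49, 28 were higher, 0 were lower and 21 were not called by DESeq2 (57.1% called, beside 46.6% of all genes). Among the 28 are 3 pairs of copies with identical values in every library (HIST2H4A and HIST2H4B, HIST2H2AA3 and HIST2H2AA4, HIST2H3A and HIST2H3C), so the 28 rest on 25 distinct measurements. The 28 also hold HIST2H3PS2 (0.51 ± 0.10 in log2), whose symbol is that of a pseudogene. At an unadjusted p under 0.05, 0 of the 58 were lower by DESeq2 and 0 by edgeR, which called 30 higher. The median log2 fold change of the 58 tested was 1.17. HIST1H2BK rose from 2866 ± 1058 to 7645 ± 3267 normalized counts (1.39 ± 0.07 in log2), and HIST1H2BD rose from 232 ± 44.3 to 836 ± 194 (1.84 ± 0.12). HIST1H1C (1.55 ± 0.11) and HIST1H3D (2.03 ± 0.18) were the other genes named by the rule. These counts are of polyadenylated mRNA, only 12 of these genes averaged 100 or more, and copies with near-identical sequence share reads.

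Markers of the cell cycle were given beside these results, since most histone mRNA is made in S phase. These lists are not separate from those above. The S phase list holds the member SLBP and also CASP8AP2, CCNE2, NASP and CHAF1B, and the G2/M list holds ANP32E, CENPA and HJURP. Of 43 S phase genes, 6 were higher, 19 were lower and 18 were not called (58.1% called, beside 46.6% of all genes). Their median log2 fold change was -0.12. MCM5 (-0.51 ± 0.07), UHRF1 (-0.50 ± 0.08) and E2F8 (725 ± 76.1 to 361 ± 34.3 normalized counts) fell and CLSPN rose (0.50 ± 0.08). Of 54 G2/M genes, 1 was higher, 50 were lower and 3 were not called (94.4% called), with a median log2 fold change of -0.65. Among them, AURKA (-1.35 ± 0.08), ANLN (-1.16 ± 0.08), HMGB2 (-0.99 ± 0.08) and TOP2A (-0.92 ± 0.06) had the 4 largest absolute Wald statistics. In bulk libraries, fewer cells in a phase and less RNA per cell cannot be told apart, and the part of these shifts in the values of the members was not tested.

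**Figure D5:**
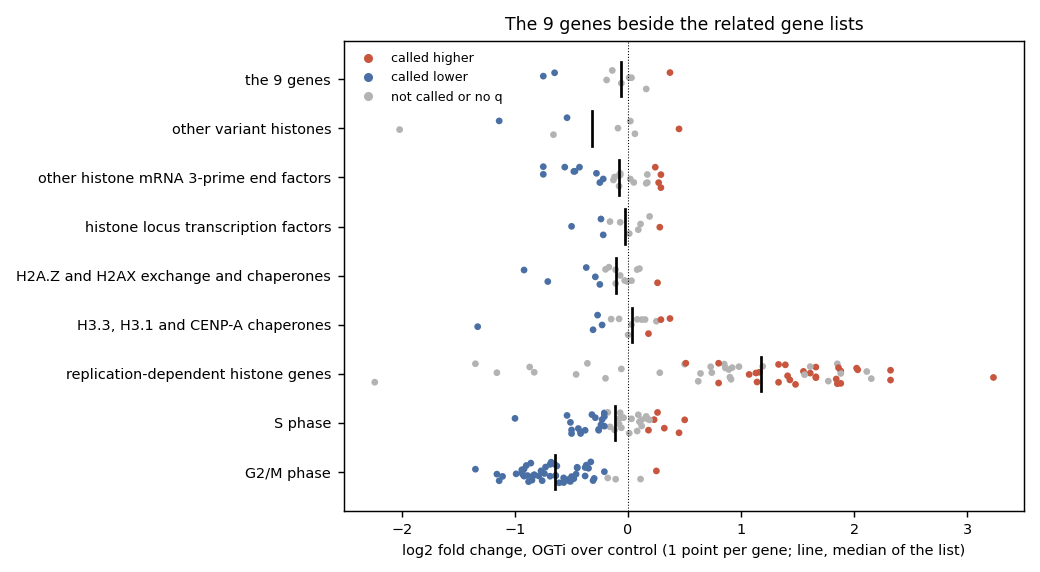
Log2 fold change of OGTi over control (horizontal axis) of each tested gene in the 9 members and in the related lists, 1 point per gene, coloured by call, with a black line at the median of each list. The points of the members lie around 0 with a median of -0.06, those of the replication-dependent histone genes lie mostly to the right with a median of 1.17, and those of the G2/M genes lie mostly to the left with a median of -0.65.

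Genes with a pattern most like that of H2AFV and LSM11, the variant histone and the processing factor with the largest Wald statistics, were named by the Pearson correlation of log2 normalized counts over the 8 libraries. For H2AFV they were RFLNB (0.998), KATNAL1 (0.998), TGOLN2 (0.996), ATP8B1 (0.995) and RBMS3 (0.995), and the 99th percentile over 10993 genes was 0.984. For LSM11 they were PDHA1 (0.994), COMMD7 (0.991), PSG4 (0.990), RIMS3 (0.990) and CARMIL1 (0.986), with a 99th percentile of 0.961. All libraries share the split between control and OGTi, so these correlations mostly describe that split.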

How the data were processed

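Polyadenylated RNA of 4 control and 4 OGTi LX-2 cultures was sequenced from both ends with strand-specific libraries. Per the labels and the methods of the study, reads were aligned to hg38 with Bowtie2 (2.3.5.1) and counted with RSEM (1.3.1), and DESeq2 (1.36.0) was used for the comparison. The deposited files hold expected counts, estimated counts in which the authors' counting splits a read that aligns to several genes. The authors' deposited comparison table was not used: it holds their fold changes and p-values.

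After rounding of the expected counts, genes with a total of at least 10 were tested with DESeq2 1.42.0 in R 4.3.3 (Wald test, median-of-ratios size factors, replicate number as a block, independent filtering, no shrinkage, q at most 0.05). A normalized count is a count over the size factor of its library. Levels per kilobase used the Ensembl canonical transcript of GENCODE on hg38. Same-numbered libraries, paired in the study's methods, had correlated deviations from the group means (r of 0.165 to 0.391 over 10994 genes, which are not independent), although control 3 was closer to OGTi 4 (0.343) than to OGTi 3 (0.165). Library pairs of a group differed by more than counting error. The labels call the 4 libraries of a group biological replicates.

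Named list genes were the called members with the 4 largest absolute Wald statistics per list, and known partners of members. One further gene of the list of members is not reported here. The members and the lists were chosen with earlier results of these data known, and the motif searches, shown sequences, per-kilobase shares and the comparison with genes at a mean of at least 100 were chosen after values were seen. Alternatives were edgeR 4.0.16 with TMM factors, DESeq2 with TMM size factors, other count filters, no block, and each replicate pair left out. On simulated counts for these libraries the fit was tested with known fold changes. It recovered the smaller of these less often than was first required, and the requirement was then lowered with the fit unchanged, so a gene that was not called may still differ by a small amount.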

Additional observations from a re-analysis of the deposited data

Results flagged for a closer look

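Within a group of 4 libraries, a large gap between the highest or lowest library and its neighbour, as a share of the range of the group, was taken as a mark for a closer look (Dixon's criterion at 95%). Of 92 groups examined, 2 met it, where chance gives about 1 in 20, or 4.6. SNRPF had 807 normalized counts in OGTi replicate 4, beside 731 to 744 in the others (gap of 0.831 of the range). ANP32E had 1859 normalized counts in control replicate 3, beside 1491 to 1514 (gap of 0.938 of the range). Neither was a member.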

How the results depend on the processing

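The 3 called members, H2AFX, H2AFV and LSM11, passed the threshold in the same direction under all 10 alternatives, with leave-out ranges of 0.31 to 0.44, -0.67 to -0.63 and -0.87 to -0.69. NPAT ranged from -0.28 to -0.10 when a replicate was left out and was called only without replicate 1 (q of 0.0327). Members near 0 changed sign when a replicate was left out: H3F3A ranged from -0.02 to 0.05 (-0.01 without replicate 2), and SLBP from -0.0038 to 0.04. CASP8AP2, with an uncalled main value, ranged from -0.18 to 0.04. With the replicate block, the mean paired differences of the log2 ratios of H2AFZ to H2AFV (0.58) and of H3F3B to H3F3A (-0.15) equal the unpaired ones by construction, and both missed 0.05 in the exact sign-flip test, which 4 pairs cannot pass. With no replicate block, DESeq2 called 6307 genes, and the same number of members, 3. Over all alternatives 5127 to 7074 genes were called. Of 350 values for the other named genes, 332 kept direction and side, and 17 lost the call. The 1 to 2 calls left in the histone locus list under 6 alternatives concern CDK2, ATM, CCNE1 and YY1. The causes were not tested. Depth limits LSM11 most, at 133 to 274 normalized counts per library.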

Other observations

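OGTi replicate 2 was the highest of the 4 OGTi libraries for 7 of the 9 members, namely H2AFZ, H2AFX, H3F3A, H3F3B, SLBP, LSM10 and LSM11. Over the 14028 genes with a q, that library was the highest for 30.1%. The members have no common direction against control, and the observation was made after the values were seen and was not tested. Without replicate 2 the same number of members, 3, was called.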
